A study of Homo sapiens with 6 samples.

Results

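RNA polymerase I is the enzyme that transcribes the genes for the large ribosomal RNAs in the nucleolus. The 8 genes POLR1A to POLR1H, which encode its own subunits and those it shares only with RNA polymerase III, were described here in SUM1315 cells with and without hypoxia. They were taken by name as a whole family, with earlier results of these data known, and all are reported whatever their values. Each gene's level is the sum over its annotated transcripts of RPKM (reads scaled to transcript length in kilobases and to library size). All 8 were among the 26409 genes with a value above 0, and all 8 passed the filter of more than 1 RPKM in at least 3 libraries, as did 11884 genes in all.

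SUM1315 is an established triple-negative breast cancer cell line, labelled as wild type and grown in every group in DMEM-F12 with fetal bovine serum, insulin and EGF. The 3 normoxia libraries came from cells at 21% oxygen. The 3 hypoxia libraries came from cells kept for 24 h at 1% oxygen in a modular chamber. The labels do not say whether the libraries of a group came from separate cultures, so every p-value refers to variation among these 6 libraries, which may be only technical.

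The polymerase has a catalytic core formed by its 2 largest subunits, held on a small assembly platform. Further subunits form a stalk that binds the initiation factor, a dimer at the edge of the core that helps initiation and elongation, and a small subunit that helps cleave RNA when the enzyme backtracks. Small common subunits are shared with RNA polymerases II and III. Because ribosomal RNA synthesis sets much of a cell's capacity to make ribosomes, polymerase I is closely tied to growth signals in tumour cells.

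The libraries held an estimated 43.9 to 50.7 M reads, and the hypoxia replicate 3 library was the shallowest. All 8 hypoxia genes checked rose, by 1.07 to 3.02 on the log2 scale (limma, adjusted p of each at most 5.57e-06). VIM, CDH2, ZEB1 and CD44, markers of mesenchymal basal lines, were all above 1 RPKM, with VIM raised by 0.47 on the log2 scale (limma adjusted p = 0.0013) and the other markers not called. ESR1 averaged 0.0716 RPKM in normoxia and 0.101 in hypoxia. ERBB2 was present, at 21.6 and 22.1 RPKM. Among markers of other cells, PTPRC, PECAM1, VWF and LUM were at or near 0, whereas CD68 rose from 46.7 to 77.2 RPKM. PDGFRA fell from 3.75 to 2.20 RPKM. PGR, CD3E and DCN were looked for and were not among the genes with a value above 0. Of the 5 luminal or epithelial markers, EPCAM, CDH1, KRT8 and KRT18 were at or near 0 and GATA3 fell from 4.93 to 3.77 RPKM (log2 fold change -0.33, limma adjusted p = 0.0436). That list summed to 4.75 to 5.17 RPKM in normoxia and 3.33 to 4.76 in hypoxia. The whole immune list, 1 of 3 markers above 1 RPKM, summed to 45.8 to 48.3 RPKM in normoxia and 73.5 to 80.7 in hypoxia. The stromal fibroblast list, also 1 of 3, summed to 3.48 to 4.21 and 2.00 to 2.58 RPKM. Their part in the results below was not tested.

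Of the 8 subunit genes, 6 were lower in hypoxia and none was higher (limma on log2(RPKM + 1), adjusted p under 0.05 over all tested genes). The same test lowered 24.4% of all tested genes and raised 12.4%. Log2 fold changes of the 8 ran from -0.65 to 0.09 with a median of -0.35, and the median over all tested genes was -0.08. All 3 hypoxia values lay below all 3 normoxia values for 7 of the 8 genes, as they did for 35.6% of tested genes, while 16.4% had all hypoxia values above. POLR1A, the largest subunit, POLR1F and POLR1G had the lowest fold changes, and POLR1D stood apart with overlapping groups. In bulk RNA of this kind, fewer cells of a type and less RNA per cell cannot be told apart. How many genes were lowered depended on the scaling: 1422 were lowered and 2021 raised with median-of-ratios scaling, 1467 and 1971 with upper-quartile scaling, and 4221 and 1182 with libraries rescaled to equal sums, against 2901 and 1478 as deposited. With median-of-ratios scaling, 6 of the 8 subunit genes were lowered beside 12% of all genes, with upper-quartile scaling 6 beside 12.3%, and with equal sums 7 beside 35.5%. Leaving out normoxia replicate 1, 2 or 3 gave 1751, 1614 and 1523 lowered genes, and 6, 5 and 6 subunit genes.

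**Figure D1:**
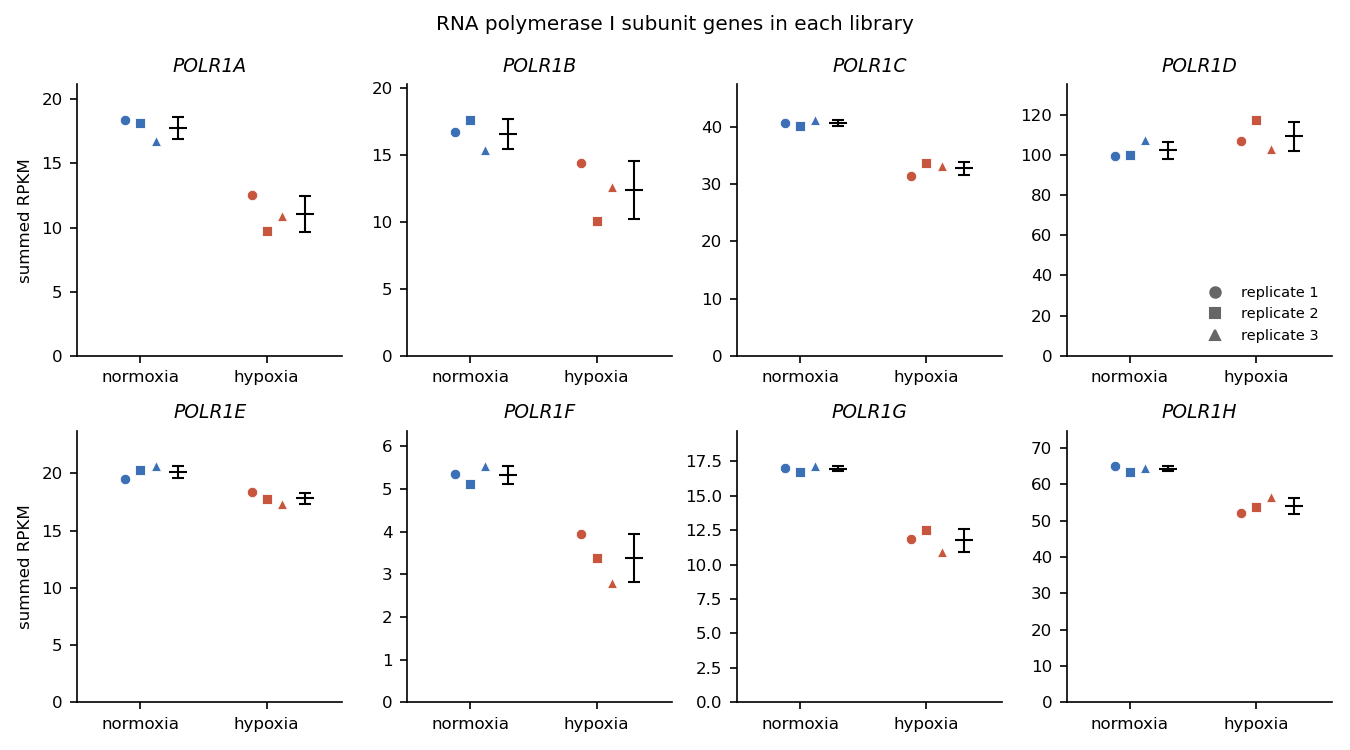
Summed RPKM (vertical axes, from 0) of the 8 polymerase I subunit genes in each library (normoxia in blue at 21% oxygen, hypoxia in red at 1% oxygen for 24 h); marker shapes give the replicate and black bars the mean ± SD. The groups are separate in 7 panels, from POLR1A (17.8 to 11.1 RPKM) to POLR1H (64.3 to 54.1 RPKM), and overlap for POLR1D.

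Both genes of the catalytic core had lower RNA levels in hypoxia. POLR1A encodes the largest subunit, which with the second largest forms the active site; the gene (ENSG00000068654) lies on the minus strand of chromosome 2, from 86020216 to 86106155 in GRCh38. Its levels were 18.4, 18.2 and 16.8 RPKM in the normoxia libraries and 12.5, 9.73 and 10.9 RPKM in the hypoxia libraries. Every hypoxia library lay below every normoxia library, with hypoxia replicate 2 the lowest. The mean fell from 17.8 ± 0.874 to 11.1 ± 1.41 RPKM (SD, n = 3 each), a log2 fold change of -0.65 (SE 0.09, 95% interval -0.84 to -0.45, limma adjusted p = 0.000451). On log2(RPKM + 1), which understates changes of low-RPKM genes, only 0.295% of tested genes had a log2 fold change at or below it. With the trend of fold change on transcript length removed, POLR1A was at -0.462 (limma adjusted p = 0.000613), beside -0.456 for POLR1G and -0.442 for POLR1F.

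POLR1A had 2 main transcripts, meaning those holding at least 10% of the gene's RPKM in either group. They share 4977 coding bases; POLR1A-201 has 5160 and a much longer mature RNA, of 12749 bases against 6454 for POLR1A-203. POLR1A-201 went from 7.73 ± 0.594 to 5.04 ± 0.634 RPKM and POLR1A-203 from 9.93 ± 0.350 to 5.996 ± 1.12 RPKM (SD, n = 3 each). Both fell, by -0.53 and -0.66 on the log2 scale (limma over 26784 transcripts, adjusted p = 0.0341 and 0.0296), while 3.22% of tested transcripts were lowered and 3.5% raised. The transcript calls were fragile: without normoxia replicate 1, 2 or 3 the adjusted p of POLR1A-201 was 0.126, 0.136 and 0.0974, and that of POLR1A-203 was 0.116, 0.111 and 0.114. POLR1A-201 also lost its call without hypoxia replicate 2 (adjusted p = 0.0547) and without hypoxia replicate 3 (adjusted p = 0.0603). POLR1A-201 made up 43.4% of the gene's RPKM in normoxia and 45.6% in hypoxia.

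POLR1B (ENSG00000125630; chromosome 2, plus strand, 112541915 to 112577150) encodes the second-largest subunit. Its levels were 16.7, 17.6 and 15.4 RPKM in normoxia and 14.4, 10.1 and 12.6 RPKM in hypoxia. The groups did not overlap, but hypoxia replicate 1 lay just under the lowest normoxia library and hypoxia replicate 2 was far lower. On average it fell from 16.6 ± 1.12 to 12.4 ± 2.16 RPKM, a log2 fold change of -0.40 (SE 0.11, 95% interval -0.64 to -0.17, limma adjusted p = 0.0148). Without normoxia replicate 2 the change was -0.36 and no longer passed the test (limma adjusted p = 0.0588). Of its 3 main transcripts none was called: POLR1B-204 had a log2 fold change of -0.41 (adjusted p = 0.0745), POLR1B-217 of -0.39 (adjusted p = 0.145) and the 555-base POLR1B-208 of -0.24 (adjusted p = 0.596), all by limma. POLR1B-208 was the most variable of them, at 5.18, 6.11 and 3.78 RPKM in normoxia and 5.34, 2.35 and 4.98 RPKM in hypoxia.

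The pair of genes for the assembly platform, which polymerase I shares with polymerase III, had RNA changes of opposite sign, and 1 of them was called. POLR1C (ENSG00000171453; chromosome 6, plus strand, 43509702 to 43562419) encodes the larger platform subunit. Its levels were 40.7, 40.2 and 41.2 RPKM in normoxia and 31.4, 33.7 and 33.1 RPKM in hypoxia, with tight groups that were well separated. The mean fell from 40.7 ± 0.506 to 32.7 ± 1.18 RPKM, a log2 fold change of -0.31 (SE 0.06, limma adjusted p = 0.00274). Nearly all of it was 1 transcript, POLR1C-211, with 90.4% of the gene's RPKM in normoxia and 90.2% in hypoxia. POLR1C-211 fell by 0.31 on the log2 scale (limma adjusted p = 0.0275). It lost its call without normoxia replicate 1, 2 or 3 (limma adjusted p = 0.123, 0.112 and 0.130) and with median-of-ratios scaling (limma adjusted p = 0.0659).

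POLR1D (ENSG00000186184; chromosome 13, plus strand, 27620742 to 27744237) encodes the smaller platform subunit, known as AC19. Its levels were 99.5, 99.8 and 107 RPKM in normoxia and 107, 117 and 103 RPKM in hypoxia. The groups overlapped, and hypoxia replicate 2 was the highest of all. The means were 102 ± 4.41 and 109 ± 7.37 RPKM, with a log2 fold change of 0.09 (SE 0.06, 95% interval -0.05 to 0.23, limma adjusted p = 0.269). The interval leaves out the drop measured for any of the 6 lowered subunit genes. The value depended on scaling, at 0.18 with median-of-ratios scaling (limma adjusted p = 0.0589), 0.17 with upper-quartile scaling and 0.02 with equal sums, and was 0.04 without hypoxia replicate 2.

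The symbol POLR1D covers different proteins, so its coding sequences are shown. GENCODE 29 assigns the 2 main transcripts to separate Swiss-Prot entries, of 133 and 122 codons without the stop. The first 150 bases of their coding sequences (GRCh38, plus strand, chr13:27621984-27622998 and chr13:27621984-27665734, exons joined) open with the same 26 bases, in capitals, and the transcripts share no further coding base. Only the first encodes the polymerase subunit.
POLR1D-201: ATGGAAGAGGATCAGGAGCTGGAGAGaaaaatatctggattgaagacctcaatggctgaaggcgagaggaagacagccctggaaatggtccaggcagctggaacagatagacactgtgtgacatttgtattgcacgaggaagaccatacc
POLR1D-203: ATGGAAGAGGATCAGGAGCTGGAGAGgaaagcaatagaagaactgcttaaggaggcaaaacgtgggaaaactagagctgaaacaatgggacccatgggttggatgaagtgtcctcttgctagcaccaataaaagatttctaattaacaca

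POLR1D-201, the transcript of the polymerase subunit, was at 57.6, 56.2 and 59.3 RPKM in normoxia and 64.3, 70.5 and 59.7 RPKM in hypoxia. All 3 hypoxia values were above the normoxia values, though hypoxia replicate 3 only just, and the log2 fold change of 0.16 was not called (limma adjusted p = 0.204). POLR1D-203 was at 31.8, 31.8 and 35.5 RPKM in normoxia and 29.1, 33.8 and 30.0 RPKM in hypoxia, which overlap (log2 fold change -0.09, limma adjusted p = 0.514). As a share of the gene, POLR1D-203 went from 31.9%, 31.9% and 33.1% to 27.2%, 28.8% and 29.1%. The shares did not overlap between groups, and no test was made of them. Of the 5 POLR1D transcripts tested, 0 were lowered and 0 raised.

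The dimer at the edge of the core consists of the products of POLR1E and POLR1G, also known as PAF53 and PAF49. POLR1G (ENSG00000117877, older symbol CD3EAP; chromosome 19, plus strand, 45406209 to 45410766) was at 17.02, 16.73 and 17.12 RPKM in normoxia and 11.9, 12.5 and 10.9 RPKM in hypoxia. The normoxia libraries were nearly equal and all hypoxia libraries were clearly lower. Its mean went from 16.96 ± 0.203 to 11.8 ± 0.805 RPKM, a log2 fold change of -0.50 (SE 0.07, 95% interval -0.65 to -0.34, limma adjusted p = 0.000561). On log2(RPKM + 1), only 1.80% of tested genes were at or below it.

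The 2 largest transcripts of POLR1G have near-identical coding sequences that differ by a short insert. Their mature RNAs differ more, with 3286 bases in POLR1G-201 and 1830 in POLR1G-202. The first coding bases of the 2 largest, from chr19:45406697-45407131 on the plus strand of GRCh38 with exons joined, show the 6 bases, in capitals, that only POLR1G-202 has. The insert keeps the reading frame, with 510 codons in POLR1G-201 and 512 in POLR1G-202.
POLR1G-201: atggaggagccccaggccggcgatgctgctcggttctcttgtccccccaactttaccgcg
POLR1G-202: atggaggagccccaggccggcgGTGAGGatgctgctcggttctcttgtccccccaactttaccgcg

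POLR1G-202 was at 7.44, 5.997 and 6.31 RPKM in normoxia and 3.39, 2.95 and 3.26 RPKM in hypoxia. Its hypoxia values were close together and far below the normoxia values. The mean fell from 6.58 ± 0.759 to 3.20 ± 0.230 RPKM, a log2 fold change of -0.85 (SE 0.11, limma adjusted p = 0.00692), the lowest of the 15 main transcripts of the 8 genes. POLR1G-201, with the same coding sequence but for the insert, was at 7.17, 7.66 and 8.35 RPKM in normoxia and 6.25, 7.28 and 5.45 RPKM in hypoxia. These groups overlapped and the log2 fold change of -0.26 was not called (limma adjusted p = 0.205), nor was that of the short POLR1G-204, -0.17 (limma adjusted p = 0.392). The share of POLR1G-202 in the gene went from 38.8% to 27.2% and that of POLR1G-201 from 45.6% to 53.8%. The difference between the transcripts was not tested, and RPKM of transcripts with so much common sequence are estimates that divide shared reads.

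POLR1G overlaps ERCC1, a DNA repair gene on the opposite strand, and the library kit does not mark strand. The overlap covers 1593 exon bases, 43.5% of the exon bases of POLR1G, 87.0% of POLR1G-202 and 48.5% of POLR1G-201. ERCC1 was the more abundant, at 86.0 ± 3.06 RPKM in normoxia and 90.5 ± 6.41 RPKM in hypoxia (log2 fold change 0.07, limma adjusted p = 0.406). The 6 ERCC1 transcripts that share at least 100 bases with POLR1G-202 summed to 37.7 to 42.3 RPKM in normoxia and 34.7 to 41.6 RPKM in hypoxia. ERCC1 did not move with POLR1G, but how reads of the overlap were divided was not tested.

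POLR1E (ENSG00000137054; chromosome 9, plus strand, 37485935 to 37503697), the partner of POLR1G in the dimer, was at 19.5, 20.2 and 20.6 RPKM in normoxia and 18.3, 17.8 and 17.3 RPKM in hypoxia. The groups did not overlap, and the drop was shallow. The means were 20.1 ± 0.543 and 17.8 ± 0.499 RPKM, with a log2 fold change of -0.17 (SE 0.06, 95% interval -0.30 to -0.03) that just missed the threshold (limma adjusted p = 0.0553). Without hypoxia replicate 1 it passed, at -0.19 (limma adjusted p = 0.0420), and with median-of-ratios scaling it was -0.09 (limma adjusted p = 0.311). The intervals of POLR1E and POLR1G did not overlap, but the difference between the partners was not among the pairs tested.

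POLR1F encodes the stalk subunit that contacts the initiation factor RRN3, and its RNA was the least abundant and among the most reduced. The gene (ENSG00000105849, older symbol TWISTNB) is on the minus strand of chromosome 7, from 19695462 to 19709087. Its levels were 5.36, 5.11 and 5.53 RPKM in normoxia and 3.94, 3.38 and 2.81 RPKM in hypoxia. All hypoxia libraries were lower, replicate 3 most of all. Its mean dropped from 5.33 ± 0.210 to 3.38 ± 0.566 RPKM, a log2 fold change of -0.54 (SE 0.10, 95% interval -0.76 to -0.32, limma adjusted p = 0.00269). On log2(RPKM + 1) a gene this low is understated; the ratio of means was 0.633, against 0.622 for POLR1A and 0.693 for POLR1G. Its values rest on an estimated 486 to 1096 reads per library, the fewest of the 8 genes. With the trend of fold change on GC content removed, the log2 fold change was -0.31 (limma adjusted p = 0.00893). All of its RPKM came from POLR1F-201.

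POLR1H (ENSG00000066379, older symbol ZNRD1; chromosome 6, plus strand, 30058899 to 30064909) encodes the small zinc-ribbon subunit that aids RNA cleavage. Its levels were 64.9, 63.5 and 64.5 RPKM in normoxia and 52.0, 53.8 and 56.4 RPKM in hypoxia. The groups were separate, with a narrow spread in normoxia. The mean fell from 64.3 ± 0.714 to 54.1 ± 2.20 RPKM, a log2 fold change of -0.25 (SE 0.06, limma adjusted p = 0.00691), the smallest change among the 6 called genes. With median-of-ratios scaling it was -0.16 (limma adjusted p = 0.0468). Its 2 main transcripts have the same 378 coding bases. POLR1H-201 went from 30.2 ± 1.27 to 23.4 ± 1.61 RPKM and fell by 0.35 on the log2 scale (limma adjusted p = 0.0355). POLR1H-202, at 28.2 ± 0.264 and 24.8 ± 0.865 RPKM, was not called (log2 fold change -0.18, limma adjusted p = 0.120). The POLR1H-201 call was fragile: without normoxia replicate 1, 2 or 3 its limma adjusted p was 0.143, 0.111 and 0.142. With median-of-ratios scaling it was 0.0706. The difference between the 2 transcripts was not tested. POLR1HASP, on the opposite strand, shares 900 exon bases with POLR1H and was at 1.28 and 1.70 RPKM (limma adjusted p = 0.0776).

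Over the 8 genes, 21 transcripts were tested, of which 6 were lowered and 0 raised. Of all 26784 tested transcripts, 3.22% were lowered and 3.5% raised. The number of subunit transcripts lowered was 1 with any of the 3 normoxia libraries left out. The number lowered among all 26784 went from 863 to between 48 and 52. Without hypoxia replicate 2, 3 subunit transcripts and 991 of all transcripts were lowered, and without hypoxia replicate 1, 5 and 552. POLR1G-202 was called in each of these fits.

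**Figure D2:**
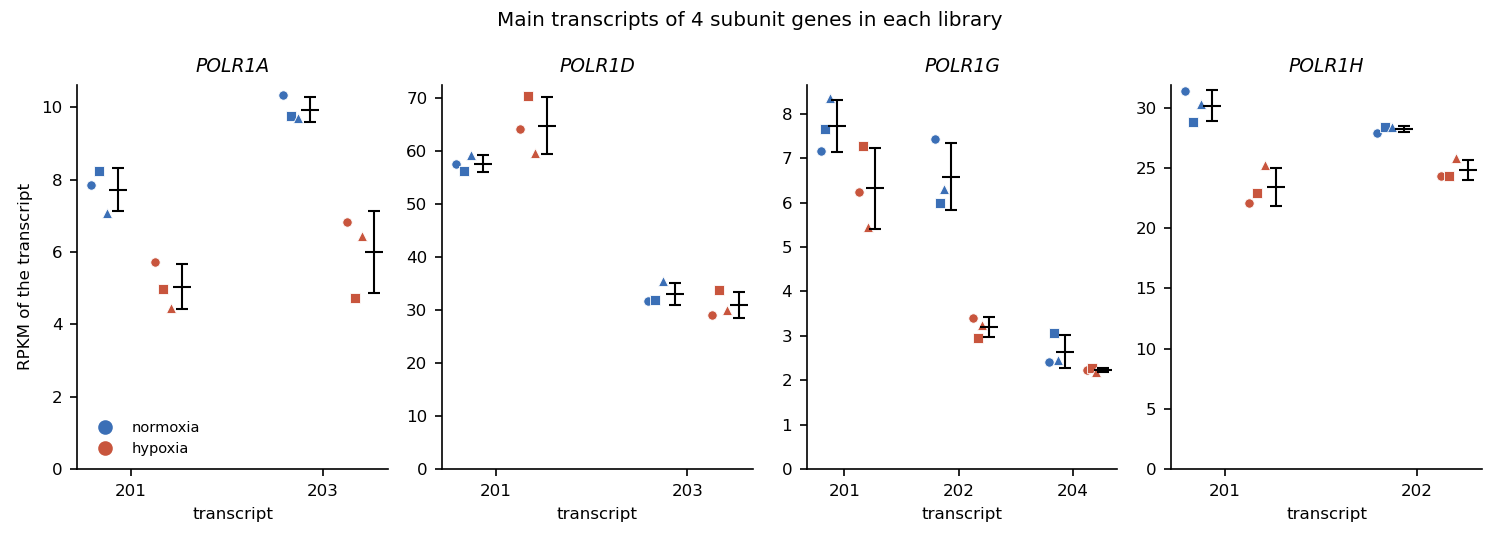
RPKM (vertical axes, from 0) of the main transcripts of POLR1A, POLR1D, POLR1G and POLR1H in each library; blue is normoxia, red is hypoxia, marker shapes give the replicate and black bars the mean ± SD. POLR1G-202 goes from 6.58 to 3.20 RPKM, and POLR1D-201 has its hypoxia libraries above its normoxia libraries.

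Levels per length were uneven across the enzyme. In normoxia the order of gene sums was POLR1D, POLR1H, POLR1C and POLR1E, each separate from its neighbours over the 3 libraries. Then came POLR1A, POLR1G and POLR1B, whose ranges overlapped, and POLR1F was last. The POLR1D gene sum, which includes POLR1D-203, was 5.75 times that of POLR1A in normoxia and 9.87 times in hypoxia. For POLR1H these ratios were 3.62 and 4.89, for POLR1C 2.29 and 2.96, and for POLR1F 0.300 and 0.305. By gene sums, the order in hypoxia differed only within the trio of POLR1A, POLR1B and POLR1G. There POLR1A became the lowest and the ranges again overlapped. POLR1D-201 alone, the transcript of the polymerase subunit, averaged 57.7 RPKM in normoxia, below POLR1H at 64.3 RPKM. In hypoxia POLR1D-201 averaged 64.8 RPKM, above POLR1H at 54.1 RPKM. Within hypoxia, replicate 3 held the lowest value of 4 genes and replicates 1 and 2 of 2 genes each, so no single library was lowest throughout.

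Among the subunits common to all 3 nuclear polymerases, 1 was lowered and 1 raised, beside 24.4% lowered and 12.4% raised of all tested genes. Of the 5, POLR2H rose from 46.2, 42.2 and 48.1 RPKM to 64.2, 64.5 and 59.6 RPKM (log2 fold change 0.46, limma adjusted p = 0.000594), with every hypoxia library above every normoxia library. POLR2K fell from 38.5, 40.4 and 44.0 RPKM to 29.7, 36.3 and 22.9 RPKM (log2 fold change -0.47, limma adjusted p = 0.0155), with no overlap but a wide spread in hypoxia. Without normoxia replicate 3, POLR2K was not called, since no gene of this list was then lowered, beside 12.8% of all tested genes. Without hypoxia replicate 2 or 3, 2 genes of the list were lowered, beside 23.8% and 23% of all tested genes. POLR2E, POLR2F and POLR2L were not called, at log2 fold changes of -0.11, -0.18 and 0.06.

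Some subunits of the other polymerases were lowered too. Of 10 genes of polymerase III alone, 7 were lowered and 0 raised, beside 24.4% of all tested genes lowered, with a median log2 fold change of -0.29; POLR3D, POLR3F and POLR3GL were not called. They were led by POLR3K, a small cleavage subunit, at -0.45 (limma adjusted p = 0.000950), and included the largest subunits POLR3A, at -0.32 (limma adjusted p = 0.0135), and POLR3B, at -0.39 (limma adjusted p = 0.0136). With normoxia replicate 1, 2 or 3 left out, each fit lowered 4 of the 10, beside 14.7%, 13.6% and 12.8% of all tested genes. Of 7 genes of polymerase II alone, 4 were lowered (POLR2A, POLR2B, POLR2C and POLR2D) and 0 raised, with a median of -0.22. With median-of-ratios scaling 2 of the 7 were lowered, beside 12% of all tested genes. POLR2G, POLR2I and POLR2J were not called. POLR2A, the largest subunit, changed by -0.26 (limma adjusted p = 0.0160) and POLR2B by -0.37 (limma adjusted p = 0.00519). Of the 6 genes of polymerase I alone, 5 were lowered, with a median of -0.45. These counts and medians describe the lists and were not compared by a test.

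**Figure D3:**
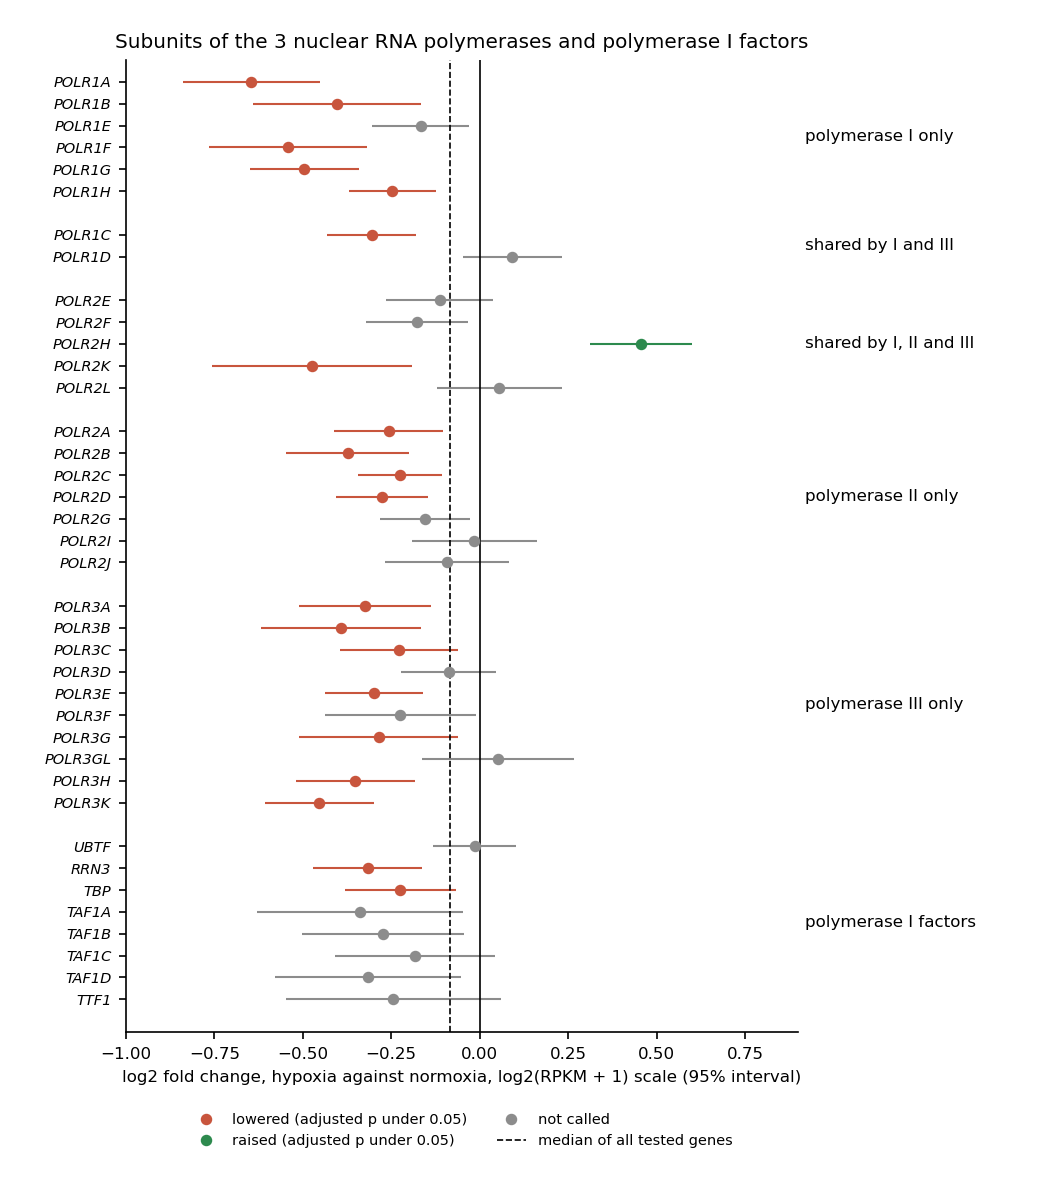
Log2 fold change (horizontal axis), hypoxia against normoxia, with 95% intervals from limma on log2(RPKM + 1), for subunits of polymerases I, II and III and the polymerase I factors; red genes were lowered and green raised at an adjusted p under 0.05, grey were not called, and the dashed line is the median of all tested genes (-0.08). POLR1A lies farthest left (-0.65) and POLR2H farthest right (0.46).

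Of the 8 initiation and termination factors of polymerase I, 2 were lowered and 0 raised, with a median of -0.26; a share of 2 in 8 is close to the 24.4% lowered among all tested genes. RRN3, which makes the polymerase competent for initiation, went from 26.7, 27.5 and 28.9 RPKM to 23.9, 21.7 and 20.7 RPKM (log2 fold change -0.32, limma adjusted p = 0.00609). The groups did not overlap, and RRN3 has near-identical pseudogene copies, so its reads may be divided. TBP, the TATA-binding protein, fell by 0.22 on the log2 scale (limma adjusted p = 0.0313). UBTF, the factor that marks active ribosomal DNA, was at 56.4 ± 1.06 and 55.9 ± 0.743 RPKM (log2 fold change -0.01, 95% interval -0.13 to 0.10, limma adjusted p = 0.857). TAF1A to TAF1D, subunits of the promoter selectivity complex, and TTF1, the terminator, were not called, with TAF1A at -0.34 (limma adjusted p = 0.0642). Without normoxia replicate 2 the number of these factors lowered was 1, beside 13.6% of all tested genes. Without hypoxia replicate 2 it was 5, beside 23.8%.

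Whether POLR1A and POLR1B moved more than their counterparts was asked with log2 ratios of (RPKM + 1) within each library, compared over the 6 libraries for 6 pairs. With 3 libraries against 3 the smallest two-sided exact permutation p is 0.1, so no pair could pass 0.05. The ratio of POLR1A to POLR2A went from -0.91 ± 0.04 to -1.30 ± 0.10 (SD, n = 3 each), a difference of -0.39, with no overlap (exact permutation p = 0.1, adjusted over the 6 pairs 0.15). Differences without overlap, at the same p, were also found for POLR1A against POLR3A (-0.32), POLR1B (-0.24) and POLR1D (-0.74). The POLR1D value is the gene sum, which includes POLR1D-203, a transcript of another protein. The difference against POLR1B was -0.13 with the trend on transcript length removed (exact permutation p = 0.2). The POLR1B ratios overlapped: the difference was -0.03 against POLR2B (exact permutation p = 0.8, adjusted 0.96) and -0.01 against POLR3B (exact permutation p = 1, adjusted 1). The POLR1A ratios were thus lower in all 3 hypoxia libraries and the POLR1B ratios were not. The signs of the POLR1B ratios were not stable: leaving out normoxia replicate 2 or hypoxia replicate 2 made them 0.01 and 0.12 against POLR2B, and 0.10 and 0.14 against POLR3B.

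**Figure D4:**
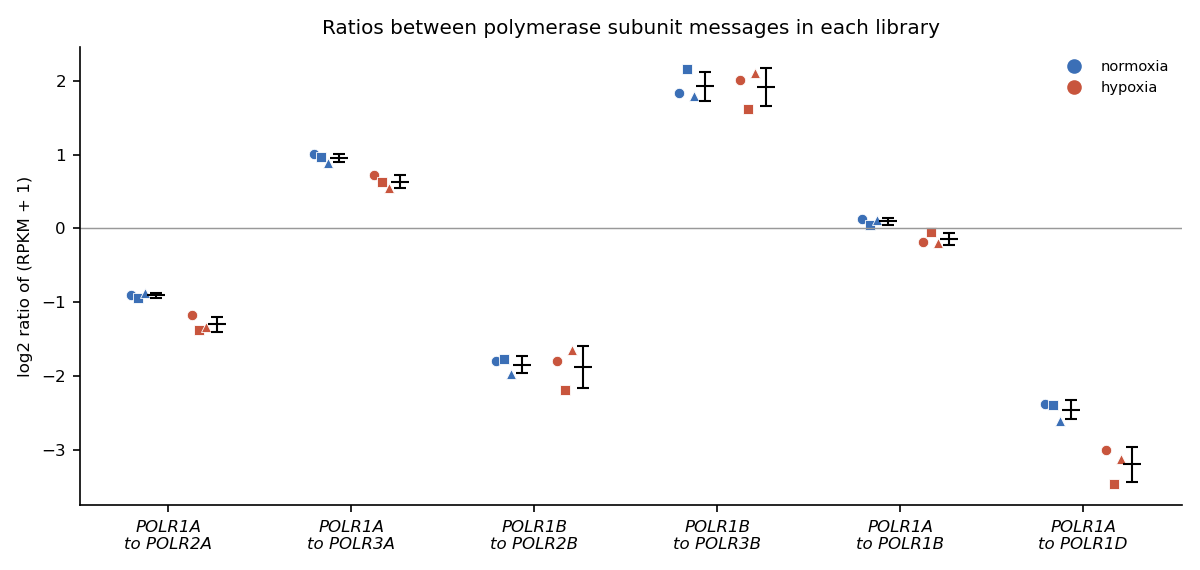
Log2 ratio of (RPKM + 1) (vertical axis) of 2 subunit genes in each library for 6 pairs; blue is normoxia, red is hypoxia, marker shapes give the replicate and black bars the mean ± SD. The ratios with POLR1A on top are separate between groups in all 4 pairs, most widely for POLR1A against the POLR1D gene sum (a difference of -0.74). The ratios of POLR1B to POLR2B and to POLR3B overlap.

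Among 7958 protein-coding genes of at least 5 RPKM, the profiles most like that of POLR1A over the 6 libraries were those of SLC4A7, TMEM192 and MAP2. The measure was the root mean square difference of log2(RPKM + 1), each gene centred on its own mean, and it was 0.038, 0.054 and 0.057. SLC4A7, a bicarbonate transporter, went from 26.1 ± 0.324 to 16.4 ± 2.18 RPKM, with its lowest value, like POLR1A, in hypoxia replicate 2. For POLR1B the nearest were LRP6, PTPN14 and CDK12, at 0.018, 0.028 and 0.033. CDK12, a kinase of the transcription cycle, went from 16.4 ± 0.727 to 12.2 ± 1.87 RPKM. Among the other subunits, POLR1A was by the same measure nearest to POLR1F (0.130), POLR1B (0.133) and POLR1G (0.152) and farthest from POLR1D (0.401). Of the 7958 genes, 1.48% were at least as close to POLR1A as POLR1F was. This share was 1.75% for POLR1B, 3.30% for POLR1G and 79.6% for POLR1D. With 6 libraries in 2 groups, the measure reads mainly the group difference and the spread within hypoxia.

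The direction of each subunit's change was the same under all 17 other ways of processing. POLR1B was called in 15 of them and POLR1E in 4. POLR1A, POLR1C, POLR1F, POLR1G and POLR1H were called in all 17, and POLR1D in none.

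**Figure D5:**
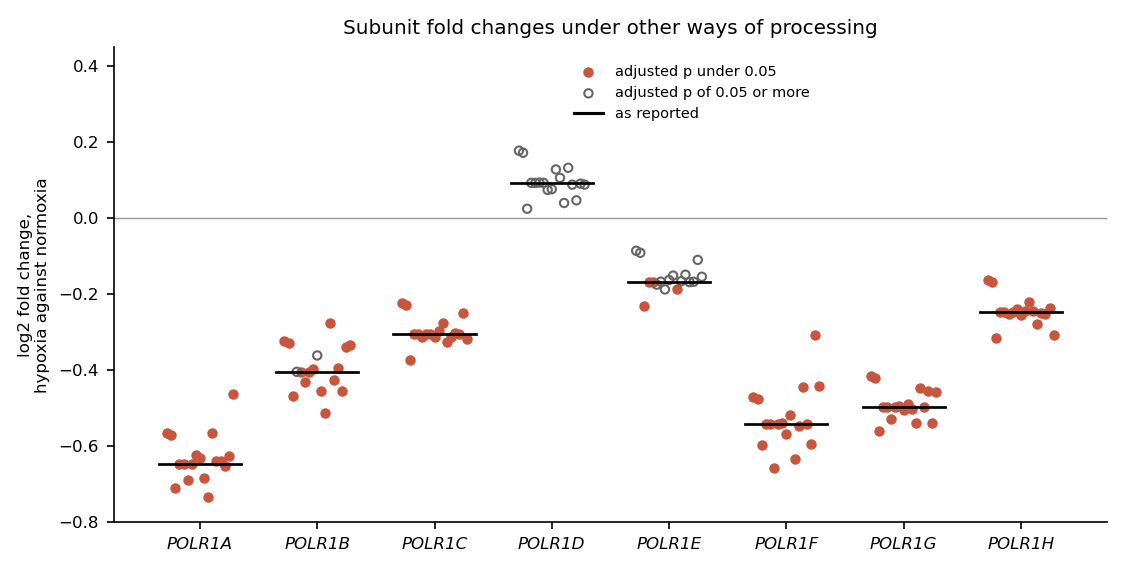
Log2 fold change (vertical axis) of each of the 8 genes as reported (black line) and under 17 other ways of processing (points; filled red for an adjusted p under 0.05, open grey otherwise). POLR1A, POLR1C, POLR1F, POLR1G and POLR1H stay below 0 and passed the test in all 17, and POLR1D ranges from 0.02 to 0.18 and passed in none.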

How the data were processed

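The authors deposited RPKM for 165956 Ensembl transcripts in 6 libraries; the unit was inferred from the values. The submitters' processing notes name builds GRCh38 and hg38 and the tools HISAT2, Partek, SAMtools and Trimmomatic; for versions, annotation and strand setting the entry is: not given in the sources used here. Transcripts were joined to GENCODE 29 (140004 matched, 84.4%; the rest held 3.44% to 3.68% of the RPKM) and summed per gene, which weights short transcripts more than counts would. Transcript names carry current gene symbols, and sequences were read from GRCh38 with GENCODE 29. Genes and transcripts above 1 RPKM in at least 3 libraries were tested on log2(RPKM + 1) with limma 3.58.1 (R 4.3.3) and its mean-variance trend, two-sided, at a Benjamini-Hochberg adjusted p of 0.05. The fit was tested on simulated data. Where genes overlap on opposite strands, reads cannot be assigned, since the kit does not mark strand.

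Whole-read steps in low values gave 43.9 to 50.7 M reads per library (79.9% to 80.9% of values within 0.1 of a whole number up to 20), so 1 read in 2 kb was worth 0.00987 to 0.0114 RPKM. Depth covers counting error only. The members, lists and tests were chosen with earlier results of these data known. Named are all 8 subunit genes, genes of the lists, transcripts with at least 10% of their gene, and the 3 genes most like POLR1A and POLR1B. The 17 alternatives covered scaling, filter, pseudocount, replicate block, each library left out, summing rule, GC and length. No libraries were identical.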

Additional observations from a re-analysis of the deposited data

How the results depend on the processing

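POLR1A, POLR1C, POLR1F, POLR1G and POLR1H passed the test under all 17 alternatives, with log2 fold changes of -0.73 to -0.46, -0.37 to -0.22, -0.66 to -0.31, -0.56 to -0.42 and -0.31 to -0.16. POLR1B lost its call with no filter (-0.40, limma adjusted p = 0.134), and ranged from -0.51 to -0.28 with 1 library left out. POLR1E passed with equal sums (-0.23, limma adjusted p = 0.0154), with no filter (-0.17, limma adjusted p = 0.0453) and with a filter of 5 RPKM (-0.17, limma adjusted p = 0.0499), and ranged from -0.19 to -0.15 with 1 library left out. POLR1D passed under none. The causes were not tested.

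Genes lowered over the whole table numbered 1422 (12% of those tested) with median-of-ratios scaling and 1467 (12.3%) for upper-quartile scaling. They numbered 1367 (5.18%) where no filter was set, and 1523 to 2866 (12.8% to 24.1%) with 1 library left out. The share lowered was 35.5% with equal sums, 31.6% with a filter of 5 RPKM and 27.1% with protein-coding transcripts. It was 27.9% with the length-weighted sum, 20.4% with the GC trend removed and 17.7% with the length trend removed. Of the subunits shared by all 3 polymerases, 3 were lowered with equal sums, 0 with no filter, 2 with a filter of 5 RPKM, 2 with protein-coding transcripts, 2 with the length-weighted sum, 2 with the GC trend and 2 with the length trend removed, and 0 to 2 with 1 library left out. Of the subunits of polymerase II alone, 2 were lowered with median-of-ratios scaling, 2 for upper-quartile scaling and 2 unfiltered. Of those of polymerase III alone, 4 were lowered with upper-quartile scaling, 2 with no filter and 4 with the length trend removed, and 4 to 7 with 1 library left out. Of the polymerase I factors, 1 was lowered with median-of-ratios scaling, 1 with upper-quartile scaling, 5 with equal sums, 1 with no filter and 4 with protein-coding transcripts, and 1 to 5 with 1 library left out.

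Transcripts lowered numbered 346 with median-of-ratios scaling, 417 with upper-quartile scaling, 2050 with equal sums, 158 with no filter and 1394 with a filter of 5 RPKM, and 48 to 991 with 1 library left out. Transcripts raised numbered 270 with no filter and 324 to 866 with 1 library left out. Transcripts of the 8 genes lowered numbered 2 with median-of-ratios scaling, 2 for upper-quartile scaling and 1 unfiltered, and 1 to 5 with 1 library left out. POLR1G-202 lost its call with no filter (limma adjusted p = 0.0643) and under none of the other alternatives run. The difference of the POLR1B to POLR3B ratio changed sign with median-of-ratios scaling (0.0027), upper-quartile scaling (0.0019) and a pseudocount of 0.1 (0.075), and ranged from -0.11 to 0.14 with 1 library left out. Without normoxia replicate 2 it was 0.10 and without hypoxia replicate 2 it was 0.14. That of POLR1B to POLR2B was 0.01 and 0.12 in the same fits and ranged from -0.15 to 0.12. POLR1B-208 had a log2 fold change of 0.051 without hypoxia replicate 2, in a range from -0.41 to 0.051.

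The labels give both groups the replicate numbers 1 to 3. Deviations from the group means correlated by 0.09, 0.03 and -0.23 between same-numbered libraries, so the numbers were not taken as pairs, and no library can be said to share a culture with another. With a replicate block the fit lowered 2664 genes and 6 of the 8 subunit genes, 98 transcripts and 1 transcript of the subunit genes, and raised 451 transcripts.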
